A study of Mus musculus with 16 samples.

Results

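The genes described here are 26 mouse genes of GABA signalling, found by gene symbol among the 54532 genes of the deposited count table, and all 26 were present. They comprise 11 subunits of GABA-A receptors, 2 subunits of the GABA-B receptor, 3 genes of GABA synthesis and vesicle loading, 3 genes of GABA uptake and breakdown, 2 proteins of the inhibitory synapse and 5 trafficking proteins. The set was chosen from measured values of these data, because Gabre, which encodes the epsilon subunit of the GABA-A receptor, differed between hTau.P301S mice with and without NR. That contrast is therefore given as a description for all 26 genes and supports nothing further.

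Poly(A) RNA from the hippocampus of 16 mice was sequenced, 4 mice in each group. WT mice and transgenic hTau.P301S mice, in which a Thy1 promoter drives human Tau P301S in neurons, drank either plain water or 6 mM NR, nicotinamide riboside, a precursor of NAD+. The labels give treatment for 3 months, from 12 to 15 months of age, whereas the text of the study gives other ages and, in 1 place, another length. The treated groups are written WT + NR and hTau.P301S + NR, and the groups on plain water WT and hTau.P301S. Nothing in the labels ties a mouse to a litter or cage, and a p-value here measures the spread between these mice.

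GABA is the main inhibitory transmitter of the forebrain. It is made from glutamate by the decarboxylases Gad1 and Gad2, loaded into vesicles by Slc32a1 and released onto pentameric GABA-A channels and onto the G protein-coupled GABA-B receptor, a pair of Gabbr1 and Gabbr2. In the hippocampus most GABA is made by local interneurons, and the alpha5 subunit, encoded by Gabra5, is known for its high level in pyramidal cells. The epsilon and theta subunits, encoded by Gabre and Gabrq, are known chiefly from the hypothalamus and brainstem. In RNA of a whole tissue, fewer cells of a type and less RNA per cell cannot be told apart.

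The 250 bases before the RefSeq start sites of Gabre, Gabrq, Gad2 and Slc32a1 are shown. Across mice the levels of Gabrq, Gad2 and Slc32a1 followed Gabre, and so did those of Gabrg1, whose window is not shown. The sequences come from RefSeq on GRCm38.p6, the assembly that mm10 denotes, and 24 of the 26 genes had an entry. Capitals mark matches to a GC box (GGGCGG) or a CCAAT box (CCAAT) on either strand.
Gabre, chrX:72274722-72274971, minus strand: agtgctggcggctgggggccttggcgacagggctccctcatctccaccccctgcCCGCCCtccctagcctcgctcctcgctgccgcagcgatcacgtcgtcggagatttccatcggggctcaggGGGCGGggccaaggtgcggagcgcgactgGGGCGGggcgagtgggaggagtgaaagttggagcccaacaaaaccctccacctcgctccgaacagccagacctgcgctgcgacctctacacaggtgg
Gabrq, chrX:72824928-72825177, plus strand: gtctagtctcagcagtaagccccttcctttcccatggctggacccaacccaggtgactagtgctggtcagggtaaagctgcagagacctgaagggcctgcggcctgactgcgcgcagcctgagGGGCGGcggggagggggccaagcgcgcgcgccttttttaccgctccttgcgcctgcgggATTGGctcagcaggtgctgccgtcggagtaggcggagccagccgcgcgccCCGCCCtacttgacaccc
Gad2, chr2:22622077-22622326, plus strand: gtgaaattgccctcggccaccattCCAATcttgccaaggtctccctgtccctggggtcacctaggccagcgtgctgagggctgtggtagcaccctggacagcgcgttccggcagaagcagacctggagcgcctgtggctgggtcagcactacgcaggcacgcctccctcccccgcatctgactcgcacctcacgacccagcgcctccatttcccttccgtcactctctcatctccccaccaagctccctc
Slc32a1, chr2:158610508-158610757, plus strand: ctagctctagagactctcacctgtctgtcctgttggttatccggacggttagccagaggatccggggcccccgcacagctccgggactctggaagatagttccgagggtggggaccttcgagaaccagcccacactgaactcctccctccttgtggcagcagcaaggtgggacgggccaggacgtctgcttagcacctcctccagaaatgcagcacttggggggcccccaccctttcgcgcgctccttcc

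The Gabre window held 3 GC boxes, and the Gabrq window held 2 GC boxes and 1 CCAAT box. The Gad2 window held 1 CCAAT box, and the Slc32a1 window held neither. Among 32851 promoter windows of this length, 32.7% held a GC box and 33.8% a CCAAT box. Searched on either strand, a TATA box (TATAAA) was in none of the 4 windows and in 12.4% of all windows. Likewise none of the 4 held an E-box (CACGTG, in 6.02% of all windows), a cAMP response element (TGACGTCA, in 1.55%) or a homeodomain core (TAATTA, in 4.84%). A match is a run of letters, not a site shown to be bound, and the GENCODE start of Gabre and of Gad2 lies inside the window shown. Gabre had 68.8% G and C in its window, Gabrq 67.2%, Gad2 64% and Slc32a1 62.4%, against a median of 52.4% over all windows.

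Total counts ranged from 16490261 to 21915362 per mouse, with a median of 18415134. Levels are given in CPM, counts scaled to a common library size, with the sizes corrected by TMM (the trimmed mean of M-values). In hTau.P301S replicate 1, mitochondrial genes took 14.4% of counts, against 4.48 to 7.07% in the other 15 mice, and among 5 equal classes of gene length the shortest had a median log2 deviation of 1.17 and the longest of -0.95 from the median mouse. In the other 15 mice these classes lay between -0.31 and 0.26. Avp and Oxt, the hypothalamic peptides vasopressin and oxytocin, reached 877 and 260.4 CPM in WT replicate 2 and 331 and 264 CPM in WT + NR replicate 3, against at most 24.3 and 8.01 in the other 14 mice. The summed level of 9 hippocampal excitatory markers was 796 and 823 CPM in those 2 mice and 1245 in hTau.P301S + NR replicate 4, against 1741 to 3084 in the rest. The markers of the labelled tissue were thus present in every mouse, and Avp and Oxt stood far higher in 2 mice than in the rest. A list of 11 choroid plexus markers also varied between mice, from a sum of 24.5 CPM in hTau.P301S replicate 1 to 10183 in WT + NR replicate 4.

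Levels of different genes were compared per kilobase of the deposited gene length. In the 4 WT mice without NR, the median ran from 0.413 CPM per kilobase for Gabre to 229.8 for Gabarapl1, an autophagy protein of the GABARAP family. Gabbr1 came next with 89.5, followed by Gabarap with 67.1. Among the GABA-A subunits Gabra5 led with 49.5, followed by Gabra3 with 22.4, Gabrb2 with 18.8, Gabra4 with 14.5 and Gabrb1 with 12.4. Gabrq (0.507) and Gabre were last, below Gabrg3 with 2.50 and Gabrg1 with 4.17. Of 25 pairs of neighbours in this order, 23 had overlapping ranges over the 4 mice, so that most of the order lies within the spread between mice. The exceptions were Gabarapl1 above Gabbr1 and Gabrg1 above Gabrg3.

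**Figure D1:**
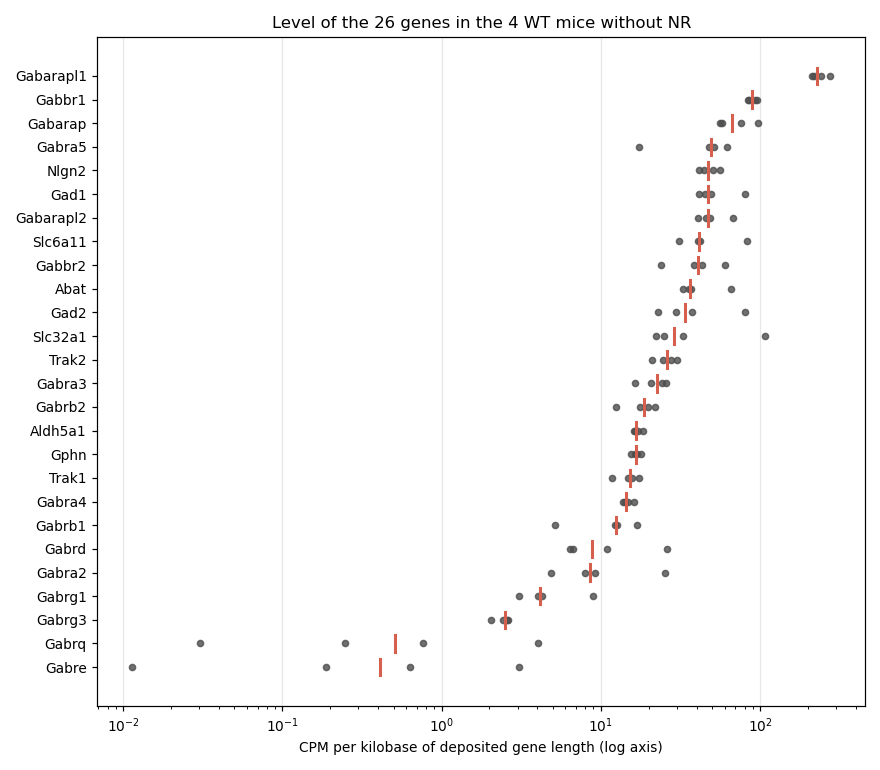
Level of each of the 26 genes in CPM per kilobase of deposited gene length (log axis) in the 4 WT mice without NR, with points for mice and a red bar for the median. Gabarapl1 sits highest (median 229.8), and Gabrq and Gabre lowest (0.507 and 0.413), with the widest spread between mice.

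Gabre was at 3 to 10 counts and Gabrq at 0, 20, 34 and 21 counts in the hTau.P301S mice, and both were higher in every hTau.P301S + NR mouse. Both lie with Gabra3 in a cluster of subunit genes on chromosome X, between 72255999 and 72842602. Gabre stood at 0.256, 0.371, 0.545 and 0.277 CPM in the hTau.P301S mice. It stood at 4.30, 4.90, 3.70 and 4.76 CPM in the hTau.P301S + NR mice, from 66 to 98 counts each. The groups did not overlap, and the fitted log2 difference was 3.56 (SE 0.33), the value for which the gene set was chosen.

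The WT mice spanned a wider range than this difference. Gabre was at 3.01, 14.6, 0.896 and 0.0541 CPM in WT and at 0.360, 0.0546, 13.03 and 0.846 CPM in WT + NR. WT replicate 2 and WT + NR replicate 3, the mice of high Avp and Oxt, were the highest of all 16, and the hTau.P301S + NR mice lay between them and the other 6 WT mice, which reached 3.01 CPM. In WT + NR against WT, which shares no mouse with the contrast that chose the gene, edgeR gave Gabre a log2 difference of -0.36 (SE 1.52, adjusted p = 0.9999). Without WT + NR replicate 3 it was -3.44, and without WT replicate 2 it was 1.46. Without WT replicate 2 and WT + NR replicate 3 it was -1.65 (edgeR adjusted p = 0.9999), so the direction in WT mice depended on which of these mice was included. Gabre had too few counts for the fit of hTau.P301S against WT, where 25 of the 26 genes were tested.

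Gabrq, the theta subunit, was also highest in WT + NR replicate 3 and WT replicate 2. It was at 4.11, 21.7, 1.32 and 0.162 CPM in WT, and at 0, 0.437, 27.6 and 0.508 CPM in WT + NR. It was at 0, 1.06, 1.85 and 1.16 CPM in hTau.P301S, and at 9.46, 8.09, 4.48 and 11.1 CPM in hTau.P301S + NR. The 4 hTau.P301S + NR mice were above the 4 hTau.P301S mice and above the other 6 WT mice, and below WT replicate 2 and WT + NR replicate 3. The fitted log2 difference was 2.98 (SE 0.73) with NR in hTau.P301S mice. In hTau.P301S against WT it was -2.72 (SE 1.32) and did not pass the test (edgeR adjusted p = 0.598). That difference came to -0.47 without hTau.P301S replicate 1 and WT replicate 2. The third gene of the cluster, Gabra3, ranged from 76.2 to 139.7 CPM in hTau.P301S + NR and from 26.9 to 80.6 CPM in hTau.P301S, and these ranges overlapped.

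**Figure D2:**
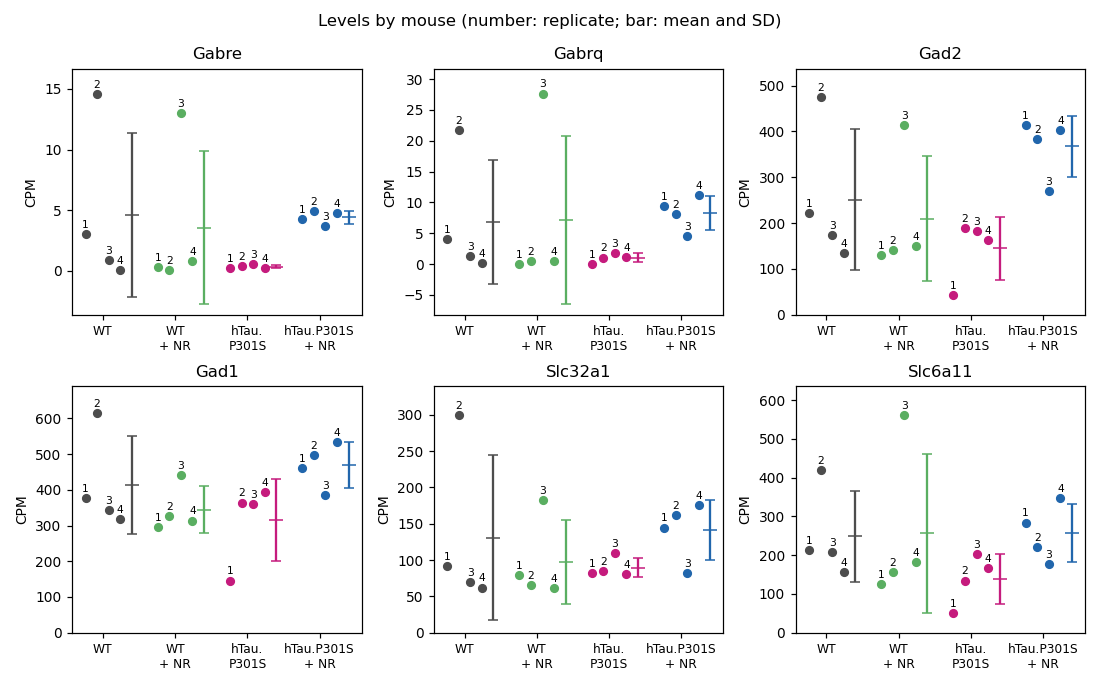
CPM of 6 genes in each of the 16 mice, numbered by replicate, with the mean and SD of each group of 4 beside the points. For Gabre and Gabrq, WT replicate 2 and WT + NR replicate 3 stand highest and the hTau.P301S + NR mice lie above the hTau.P301S mice, and hTau.P301S replicate 1 is low for Gad1, Gad2 and Slc6a11.

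Gad2 was also higher in the hTau.P301S + NR mice, while Gad1 and Slc32a1 overlapped between the groups. Gad2, the decarboxylase tied to synaptic terminals, was at 414, 383, 270.2 and 403 CPM in hTau.P301S + NR and at 43.5, 189, 183 and 163 CPM in hTau.P301S, without overlap. The log2 difference was 1.34 (SE 0.41), and 1.05 without hTau.P301S replicate 1, the mouse of 43.5 CPM. In WT it was at 221, 476, 174 and 134 CPM, and in WT + NR at 131, 142, 413 and 151 CPM, with the highest level again in WT replicate 2 and WT + NR replicate 3. Against WT + NR, the hTau.P301S + NR mice differed by 0.81 (SE 0.37) for Gad2, which did not pass the test (edgeR adjusted p = 0.781). Without WT + NR replicate 3 the Gad2 difference was 1.38 and passed it (edgeR adjusted p = 0.0142), and that of Gabrq was 4.72 (edgeR adjusted p = 0.0419). These calls rest on the omission of 1 mouse, the highest of its group for both genes. They also share the hTau.P301S + NR mice with the contrast that chose the set. The 13 interneuron markers summed to 799, 919, 977 and 1066 CPM in hTau.P301S + NR and to 3062, 836, 940.5 and 961 CPM in hTau.P301S, where the sum of replicate 1 held 1814 CPM of Cck and 609 of Sst. Of these 13 genes 8 had a log2 difference above 0 and 5 below. Without overlap, 3 were higher with NR and 1 was lower (Cck), beside 6.33% and 5.54% of all genes. The 3 were Reln (68.6 to 108 against 18.6 to 55.4 CPM), Lhx6 (24.8 to 36.5 against 4.27 to 24.05 CPM) and Dlx6os1 (18.1 to 20.98 against 9.23 to 13.9 CPM). The lowest hTau.P301S level of each was that of replicate 1. The part of interneuron RNA in the Gad2 levels was not tested.

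Gad1, the other decarboxylase, was at 461, 497, 386 and 535 CPM in hTau.P301S + NR and at 146, 364, 361 and 393 CPM in hTau.P301S. Only hTau.P301S + NR replicate 3, at 386 CPM, fell within the range of the hTau.P301S mice. Per kilobase, Gad2 stood at 0.910 to 1.17 times Gad1 in the 4 hTau.P301S + NR mice and at 0.388 to 0.675 times in the 4 hTau.P301S mice. The ratio was 1.01 in WT replicate 2 and 1.22 in WT + NR replicate 3, and 0.550 to 0.760 in the other WT mice of both treatments. The mice with the highest Gabre were thus those with the highest ratio.

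Slc32a1, the vesicular GABA transporter, was at 145, 162, 82.2 and 176 CPM in hTau.P301S + NR and at 82.4, 85.3, 109 and 80.7 CPM in hTau.P301S, and the groups overlapped because hTau.P301S + NR replicate 3 lay among the hTau.P301S mice. In WT it was at 91.9, 299.7, 70.1 and 62.2 CPM, and in WT + NR at 78.9, 66.0, 183 and 61.4 CPM. WT replicate 2 had more than any other mouse. Uptake and breakdown followed the same mice. Slc6a11, the GABA transporter of astrocytes, reached 420.5 CPM in WT replicate 2 and 563 in WT + NR replicate 3, against 124 to 212 in the other 6 WT mice. Abat, the transaminase that degrades GABA, reached 510.1 and 538 CPM there, against 195 to 288. Aldh5a1, the dehydrogenase of the next step, was at 105 and 126 CPM against 89.4 to 97.1.

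Over all 26 genes, WT replicate 2 and WT + NR replicate 3 were both above the other 6 WT mice for 11 genes and both below them for 5, beside 14.9% and 16.05% of 17555 genes. This is given without a test, since the 2 mice were singled out by their high Avp and Oxt. The 11 were Gabrg1, Gabre, Gabrq, Gad1, Gad2, Slc32a1, Slc6a11, Abat, Aldh5a1, Gabarap and Gabarapl2. The 5 were Gabra5, Gabrb1, Gabbr2, Gphn and Trak1. Gabra5, which in this tissue belongs to pyramidal cells, was at 51.9 and 66.3 CPM in them, against 142 to 190 in the other 6. It was also low, at 44.5 CPM, in hTau.P301S + NR replicate 4, whose hippocampal excitatory markers were low as well, against 136, 175 and 233 CPM in the other mice of its group.

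The 8 hypothalamic peptide genes of the marker list, Oxt, Avp, Agrp, Pomc, Hcrt, Pmch, Trh and Gal, summed to 1222 CPM in WT replicate 2 and 792 in WT + NR replicate 3. They summed to 4.57, 19.4, 15.0 and 56.5 CPM in the hTau.P301S + NR mice and to 18.5, 3.55, 3.43 and 2.16 CPM in the hTau.P301S mice. In the other 6 WT mice the sum was 3.14 to 6.06 CPM. In every mouse 7 or 8 of the 8 genes had a count. A list of 10 striatal markers summed to 2399 CPM in WT replicate 2, 792 in hTau.P301S + NR replicate 4 and 499.7 in WT + NR replicate 3. In the hTau.P301S + NR group Gabre was at 3.70 to 4.90 CPM and the peptide sum at 4.57 to 56.5 CPM. The part of other brain regions in the levels of Gabre, Gabrq and Gad2 was not tested.

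**Figure D3:**
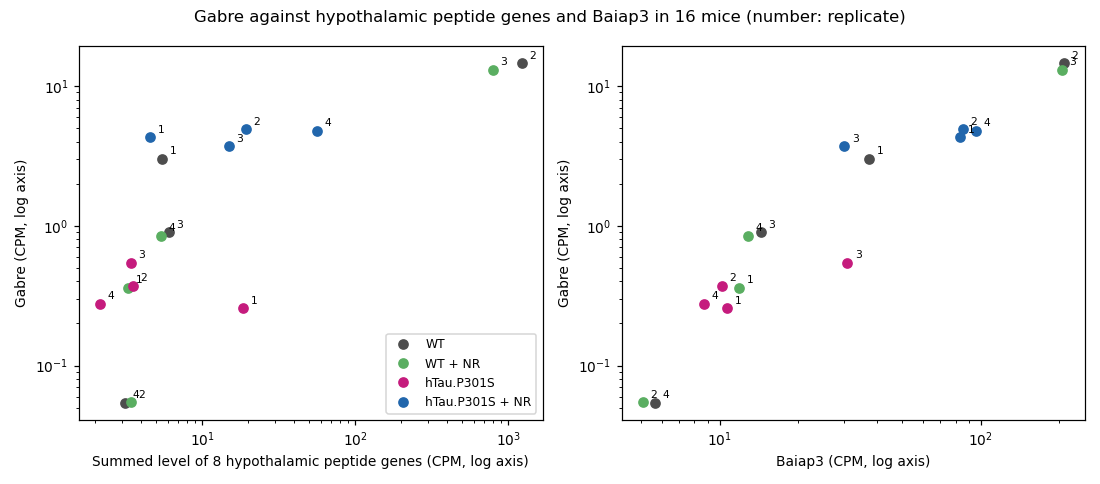
Gabre in CPM against the summed CPM of 8 hypothalamic peptide genes (left) and against Baiap3 in CPM (right), on log axes, for 16 mice coloured by group and numbered by replicate. The hTau.P301S + NR mice have Gabre at 3.70 to 4.90 CPM, a peptide sum of 4.57 to 56.5 CPM and Baiap3 at 30.0 to 95.9 CPM. WT replicate 2 and WT + NR replicate 3 are highest on every axis.

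The 5 genes whose log2 CPM followed Gabre most closely over the 16 mice, out of 17554 others, were Baiap3 (Pearson's r = 0.96), Arhgap36 (0.95), Irs4 (0.94), Zcchc12 (0.94) and Nkx2-1 (0.94). Baiap3 is a protein of vesicle release and Nkx2-1 a transcription factor of the ventral forebrain and hypothalamus. WT replicate 2 and WT + NR replicate 3 were the highest mice for all 5. Baiap3 was at 204 to 208 CPM in these 2 mice, at 30.0 to 95.9 in hTau.P301S + NR, at 8.70 to 30.8 in hTau.P301S and at 5.08 to 37.3 in the other 6 WT mice. Nkx2-1 was at 14.1 to 15.4, 2.52 to 7.10, 0.443 to 2.02 and 0.492 to 3.23 CPM in the same order. Arhgap36 was at 26.4 to 28.0, 5.60 to 10.3, 0.684 to 4.74 and 0.546 to 3.89 CPM. Irs4 was at 33.5 to 37.0, 7.79 to 12.6, 0.159 to 2.02 and 0 to 4.49 CPM. For both, as for Gabre, every hTau.P301S + NR mouse was above the hTau.P301S mice and the other 6 WT mice. For Baiap3, Zcchc12 and Nkx2-1 the hTau.P301S + NR range overlapped that of the other 6 WT mice. Over the 14 mice without these 2, Spearman's rho with Gabre was 0.93 for Baiap3, 0.96 for Arhgap36 and 0.85 for Irs4. The points share libraries, and the genes were picked for their likeness over mice that include these 14. Among the 26 genes, Gabrq (0.89), Slc32a1 (0.83), Gabrg1 (0.83) and Gad2 (0.82) had the highest r with Gabre and Gabra5 the lowest (-0.68).

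The other GABA-A subunits lie mostly in clusters. Gabrg1, Gabra2, Gabra4 and Gabrb1 fill 1398 kilobases of chromosome 5, from 70751047 to 72149037, and Gabra4 and Gabrb1 share 196 bases on opposite strands, where reads cannot be assigned without strand. Gabra2 varied most among them in WT, at 60.9, 37.2, 194 and 69.8 CPM, and was at 49.5, 79.1, 94.4 and 137 CPM in WT + NR. It was at 155, 131, 188 and 115 CPM in hTau.P301S + NR. The latter differed from WT + NR by 0.71 (SE 0.28) on the log2 scale with overlap, which did not pass the test over all genes (edgeR adjusted p = 0.781). Gabrg1, the gamma1 subunit, was at 55.1, 50.2, 32.1 and 47.9 CPM in hTau.P301S + NR and at 12.6, 30.8, 34.5 and 28.6 CPM in hTau.P301S. Gabra4 and Gabrb1 ranged from 65.0 to 137 and from 71.5 to 317 CPM over all 16 mice.

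On chromosome 7, Gabrg3 and Gabra5 lie between 56716465 and 57510059 and had log2 differences of opposite sign with NR in hTau.P301S mice (0.76 for Gabrg3 and -0.73 for Gabra5). Gabrg3, the gamma3 subunit, was at 42.3, 32.7, 35.1 and 33.1 CPM in hTau.P301S + NR and at 18.2, 21.5, 19.8 and 24.99 CPM in hTau.P301S. It was at 24.5, 30.5, 29.1 and 31.3 CPM in WT and at 14.3, 26.7, 32.4 and 23.4 CPM in WT + NR. Gabrg3 was the 1 gene of the 26 for which all hTau.P301S + NR mice were above the other 12 mice, by a margin of 32.7 against 32.4 CPM at the nearest pair, beside 0.125% of 17555 genes, and the choice of the set used 8 of these mice. Against WT + NR the log2 difference was 0.56 (SE 0.22, edgeR adjusted p = 0.781). In hTau.P301S against WT it was -0.45 (SE 0.18, edgeR adjusted p = 0.598). Neither passed the test.

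Gabra5 was at 264, 169.9, 259.8 and 279 CPM in hTau.P301S and at 142, 51.9, 184 and 153 CPM in WT. The log2 difference was 0.88 (SE 0.37), did not pass the test (edgeR adjusted p = 0.598) and fell to 0.55 without hTau.P301S replicate 1 and WT replicate 2. The groups overlapped, at 169.9 CPM against 184 CPM. Of the 4 alpha subunits measured, Gabra5 made up 54.1 to 79.2% of their summed level per kilobase in the hTau.P301S mice. It made up 28.7% in WT replicate 2, 31.1% in WT + NR replicate 3 and 17.7% in hTau.P301S + NR replicate 4, the 3 mice low in hippocampal excitatory markers, where Gabra3 led with 40.0%, 36.7% and 42.2%.

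Gabrb2, the beta2 subunit on chromosome 11, and Gabrd, the delta subunit of extrasynaptic receptors on chromosome 4, carried the mark of hTau.P301S replicate 1. Gabrb2 had 15 counts there, 1.28 CPM, against 117, 88.2 and 111 CPM in the other hTau.P301S mice and 62.0 to 147 CPM in the remaining 12. Gabrd was at 77.6 CPM there, against 23.9, 23.2 and 28.4 CPM in its group. It was also high in WT replicate 2, at 75.2 CPM, and in hTau.P301S + NR replicate 4, at 49.4 CPM, the mice with the highest sums of striatal markers. WT + NR replicate 3, next with a sum of 499.7 CPM, had the lowest Gabrd of all 16 mice, 13.1 CPM.

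The GABA-B receptor and the synaptic scaffolds had no call in any comparison. Gabbr1 ranged from 626 to 821 CPM over all 16 mice, and its log2 differences lay between -0.10 and 0.05 in the 4 pairwise comparisons. Its partner Gabbr2 was at 65.1 CPM in hTau.P301S replicate 1, at 160.1 in WT replicate 2 and at 227 to 403 CPM in the other 14 mice. Gphn, gephyrin, the scaffold that holds GABA-A and glycine receptors at the synapse, ranged from 53.1 to 91.7 CPM. Nlgn2, the adhesion protein of inhibitory synapses, was at 73.0 CPM in hTau.P301S replicate 1 and at 237 to 335 CPM in the other 15 mice.

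In hTau.P301S replicate 1 the trafficking genes Gabarap and Gabarapl2 were high and Trak1 and Trak2 were low. Gabarapl1, of 2013 bases, lay within its group, at 611 against 511 to 627 CPM. Gabarap, which binds the gamma2 subunit and acts in autophagy, was at 811 CPM in hTau.P301S replicate 1 and at 123, 140.2 and 138 CPM in the other hTau.P301S mice. Its relative Gabarapl2 was at 236 CPM there, against 117, 129.8 and 116 CPM. Trak1 and Trak2, kinesin adaptors that bind mitochondria and GABA-A receptors, were at 93.0 and 89.9 CPM there, against at least 205 and 222 CPM. Of the 6 genes shorter than 3000 bases, 3 were above and none below the other hTau.P301S mice in this library. All 20 genes of 3000 bases or longer were below them, with a median log2 ratio of -1.29. In hTau.P301S against WT, the Gabarap log2 difference was 1.21 (SE 0.64, edgeR adjusted p = 0.598), and it was 0.18 without hTau.P301S replicate 1 and WT replicate 2.

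**Figure D4:**
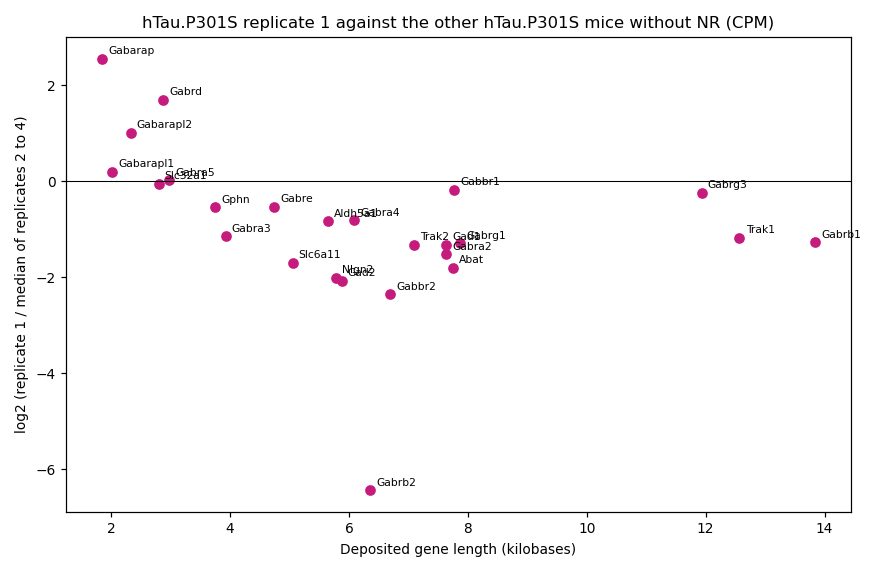
Log2 ratio of CPM in hTau.P301S replicate 1 to the median of hTau.P301S replicates 2 to 4 against the deposited gene length in kilobases, for 25 genes (Gabrq was at 0 in replicate 1 and has no point). Genes shorter than 3 kilobases lie between -0.05 for Slc32a1 and 2.55 for Gabarap, and longer genes lie below 0, down to -6.43 for Gabrb2.

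The comparison of hTau.P301S with WT asks what the transgene changes without NR. None of the 25 genes tested was called by edgeR, with a limit of 0.05 for the adjusted p and of 0.5 for the size of the log2 difference, nor by DESeq2, against 0.00611% of all genes (1 of 16375). At an unadjusted p under 0.05 (edgeR), 1 gene was higher (Gabra5) and 1 lower (Gabrg3), against 3.41% and 3.73% of all genes. No gene of the 25 was free of overlap between the groups in either direction, against 3.55% (higher) and 2.69% (lower) of all genes. The median log2 difference of the 25 was -0.18, against 0.02 over all genes tested. Without hTau.P301S replicate 1 and WT replicate 2, again none was called.

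The effect of NR in hTau.P301S mice is the contrast that chose the set, and the following is a description. Gabre passed the filter on low counts through the hTau.P301S + NR mice, with 66 to 98 counts each. Of the 26 genes it alone was called. It was also the 1 gene called among all 16386 (0.00610%), so that share is no separate background. That call was lost without each of the 8 mice other than hTau.P301S replicate 1, with a replicate block and with all 4 groups in one fit, while the log2 difference stayed between 3.45 and 3.82. In all, 19 of the 26 had a log2 difference above 0 and 7 below. Without overlap, 4 were higher (Gabrg3, Gabre, Gabrq and Gad2) and 1 was lower (Gabarapl1), beside 6.33% and 5.54% of all genes. The median of the 26 was 0.41, against -0.03 over all genes. Gabarapl1 was at 422, 482, 449 and 481 CPM with NR and at 611, 511, 627 and 531 CPM without. All 10 striatal markers also had a log2 difference above 0, with a median of 1.49, and their sums were 116.7 to 792 CPM in hTau.P301S + NR and 110.7 to 215 CPM in hTau.P301S. Of 5 hypothalamic markers tested 4 lay above 0, 2 of them without overlap. The part of these other regions in the values of the 26 genes was not tested.

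In WT mice none of the 26 genes passed the test for NR. By edgeR none was called, as among all genes (0%, 0 of 16714), and none had an unadjusted p under 0.05 (edgeR), against 0.790% of all genes. DESeq2 also called none of the 26. None was free of overlap, higher or lower, against 0.365% and 0.389%. The log2 differences ran from -0.57 (Gabrd) to 0.30 (Trak2), with a median of -0.01. The 2 mice of high Avp and Oxt fell into different arms of this comparison, and the standard errors of Gabre and Gabrq, 1.52 and 1.68, were the widest of the 26, against 0.33 and 0.73 with NR in hTau.P301S mice.

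Between genotypes on NR, in hTau.P301S + NR against WT + NR, none of the 26 was called by edgeR or DESeq2, against 0.0540% of all genes (9 of 16671). At an unadjusted p under 0.05 (edgeR), 3 were higher (Gabra2, Gabrg3 and Gad1) and none lower, against 2.42% and 3.67%. Without overlap, 1 was higher (Gabrg3) and none lower, against 1.62% and 2.11%. The Gad1 log2 difference was 0.44 (SE 0.16, edgeR adjusted p = 0.781). This comparison shares the hTau.P301S + NR mice with the contrast that chose the set, and no mouse with hTau.P301S against WT.

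Genotype over all 16 mice, with NR as a covariate, gave no call among the 26, against 0.120% of all genes (21 of 17555), and no unadjusted p under 0.05 (edgeR), against 7.75%. DESeq2 called none of the 26 either. Without hTau.P301S replicate 1, WT replicate 2 and WT + NR replicate 3, the Gad2 log2 difference moved from 0.01 to 0.74 (edgeR adjusted p = 0.156) and that of Slc32a1 from -0.01 to 0.69 (edgeR adjusted p = 0.124). Neither was called.

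The interaction asks whether NR acted differently in the genotypes, and it includes the contrast that chose the set. None of the 26 was called by edgeR or DESeq2, and by edgeR none among all genes (0%, 0 of 17555). At an unadjusted p under 0.05 (edgeR), 4 were higher (Gabra3, Gabrg3, Gabre and Gad2) and none lower, beside 3.29% and 4.63% of all genes. The values were 1.17 (SE 0.55) for Gabra3, 1.01 (SE 0.29) for Gabrg3, 3.93 (SE 1.83) for Gabre and 1.61 (SE 0.68) for Gad2. Without hTau.P301S replicate 1, WT replicate 2 and WT + NR replicate 3 they were 1.19, 1.10, 5.11 and 1.37, and none was called.

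**Figure D5:**
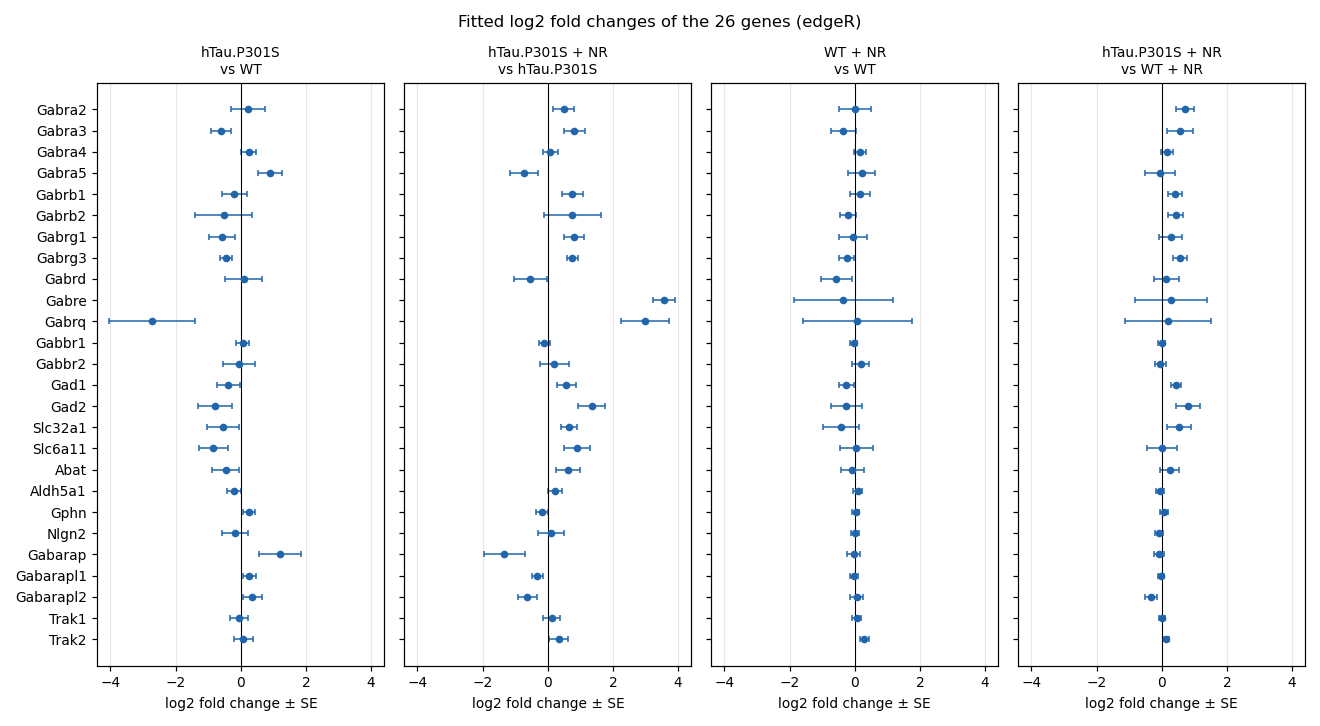
Fitted log2 fold changes with their standard errors (edgeR) for the 26 genes in the 4 pairwise comparisons, each of 4 mice against 4. Gabre (3.56) and Gabrq (2.98) stand out with NR in hTau.P301S mice, while in WT + NR against WT their values are -0.36 and 0.08 with the widest errors. Gabre has no point in hTau.P301S against WT.

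Of 29 other genes of the GABA pathway, 26 were tested and none was called in any of the 6 comparisons (edgeR). At an unadjusted p under 0.05 (edgeR), at most 1 gene of the list was higher and 1 lower in a comparison. Gabrr2, the rho2 subunit of GABA-A receptors, was at 3.59, 5.99, 2.12 and 4.54 CPM in hTau.P301S and at 0.658, 0.336, 0.475 and 1.03 CPM in WT, without overlap. The log2 difference was 2.69 (SE 0.48), which did not pass the test over all genes (edgeR adjusted p = 0.321). It was at 1.39, 1.41, 1.23 and 0.729 CPM in hTau.P301S + NR, below every hTau.P301S mouse, and the interaction was -3.00 (SE 0.62, edgeR adjusted p = 0.426). In hTau.P301S mice its direction with NR was opposite to that of Gabre, at 6 to 113 counts per mouse over all 16. Kctd8, an auxiliary subunit of the GABA-B receptor, had less RNA in hTau.P301S than in WT, without overlap. It was at 2.22 to 6.82 against 6.96 to 20.1 CPM (log2 difference -1.18, SE 0.44, edgeR adjusted p = 0.598). Gabrr2 and Kctd8 were the only genes of the list without overlap there, beside 3.55% (higher) and 2.69% (lower) of all genes. Slc6a12, the betaine and GABA transporter, had the largest difference of the list between genotypes on NR, -0.84 (SE 0.93), and Slc6a13, another GABA transporter, the next, -0.54 (SE 0.62).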

How the data were processed

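Hippocampal RNA of 16 mice, 4 per group, was analysed, with groups taken from the sample labels. Per the submitters' notes and the methods, the authors used FastQC and Trim Galore, then STAR on mm10 and RSEM, and the deposited values are raw counts per gene, whole numbers that were not normalized. The authors also deposited another value, a gene length whose definition is not stated, used here for levels per kilobase. Whether libraries kept strand is not stated. Total counts per mouse were 16490261 to 21915362.

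The 8 mice of each pair of groups entered a fit in edgeR 4.0.16 (R 4.3.3; default filter on low counts, TMM, quasi-likelihood test) over all genes kept, with Benjamini-Hochberg adjustment over all of them. Genotype and the interaction used all 16 mice. A call needed an adjusted p below 0.05 plus a log2 difference beyond 0.5 in either direction, or for the interaction the adjusted p alone. SEs come from the log2 difference and its test statistic. Log2 CPM used a prior count of 2. Pearson's r with Gabre used log2 CPM. The fit was tested on simulated counts. DESeq2 1.42.0, other filters, normalizations, designs and each mouse left out served as alternatives.

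The 26 genes and the other gene lists were chosen with earlier results of these data known. All 26 are named. Of the other pathway genes, those called or with the 2 largest differences per comparison were eligible to be named, and of all genes the 5 most like Gabre. Leaving out hTau.P301S replicate 1, WT replicate 2 and WT + NR replicate 3 together was chosen after seeing the data. Positions are from GENCODE M21 on GRCm38. Counting error for genes of few counts adds to the spread between mice. The human transgene was not analysed here.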

Additional observations from a re-analysis of the deposited data

Results flagged for a closer look

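In each group of 4 mice, the highest or lowest level of each of the 26 genes was compared with the rest of its group by Dixon's gap ratio at its 95% limit. Of 104 groups tested, 19 stood out. Chance alone flags about 1 in 20 of independent groups, but the 26 genes come from the same 16 libraries. The count of 19 is therefore not set against that rate. hTau.P301S replicate 1 accounted for 8, WT + NR replicate 3 for 7, WT replicate 2 for 2, and hTau.P301S + NR replicate 4 and hTau.P301S replicate 3 for 1 each.

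In hTau.P301S replicate 1, Gabarap (811 CPM), Gabarapl2 (236) and Gabrd (77.6) were above the rest of the group. Gad1 (146 CPM), Abat (83.3), Gabbr2 (65.1), Trak1 (93.0) and Trak2 (89.9) were below it.

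In WT + NR replicate 3, Gabre (13.03 CPM), Gabrq (27.6), Gad2 (413), Slc32a1 (183), Slc6a11 (563) and Gabrg1 (73.2) were above and Gabra5 (66.3) was below. In WT replicate 2, Slc32a1 (299.7 CPM) and Abat (510.1) were above.

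In hTau.P301S + NR replicate 4, Gabrd was at 49.4 CPM, against at most 20.3 CPM in the rest of its group. In hTau.P301S replicate 3, Slc32a1 was at 109 CPM, against at most 85.3.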

How the results depend on the processing

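The count of genes called among the 26 stayed at 0 in hTau.P301S against WT, WT + NR against WT, genotype and the interaction under every alternative run, and none of the 26 changed sign while called. With NR in hTau.P301S mice the count was 1, and it was 3 with DESeq2 (Gabre, Gabrg3 and Gabrq) and 0 with edgeR on all 4 groups in one fit and with at least 10 counts in every mouse, a filter that removes Gabre and Gabrq. With DESeq2 on all 4 groups it was again 1, but the gene was Gabrg3. Leaving out each mouse gave 0 to 3. Gabre lost its call without each mouse other than hTau.P301S replicate 1, and without that mouse Gabre, Gabrq and Gad2 were called, while the Gabre log2 difference stayed between 3.45 and 3.82. In hTau.P301S + NR against WT + NR the count was 0 to 2 without each mouse, with Gabrq and Gad2 called without WT + NR replicate 3. With a replicate block the count with NR in hTau.P301S mice was 0 and the Gabre difference 3.59. The replicate numbers stand for no stated litter or day. The deviations of same-numbered mice correlated between -0.54 and 0.29, each over a single pair of mice, which cannot show whether they shared one. The cause of these changes was not tested. Counts of 1 to 15 for Gabre in several mice limit its precision.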
